A study of Mus musculus with 40 samples.

Results

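A list of 42 genes of the extracellular matrix and of hepatic stellate cells was followed through the liver and kidney of control and phenobarbital (PB)-treated mice. The genes were found by symbol in the annotation of the array, and 41 of the 42 had a probe set there, from 18193 genes with a probe set in all. Fbn1, the gene of fibrillin-1, is not analysed here. The 41 genes are covered by 93 of the 45037 probe sets, and each gene was followed through the probe set with the highest mean signal over the 40 arrays. Male B6C3F1/Crl mice, a C57BL/6 by C3H/He cross, arrived at 29 to 32 days of age and were given 5 days to settle. PB is a sedative barbiturate under which hepatocytes raise their drug-clearing enzymes. It was then supplied at 0.05% (w/v) in the drinking water of 10 mice for 28 days, and 10 control mice drank without it. No genotype or agent other than PB separates the groups, and 1 liver and 1 kidney array of each of the 20 animals gives 4 groups of 10.

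The extracellular matrix is a mesh of collagens, laminins, proteoglycans and glycoproteins around and beneath cells. In the liver much of it is made by hepatic stellate cells, which lie between the hepatocytes and the sinusoidal endothelium, store vitamin A, and after injury turn into contractile myofibroblasts that secrete fibrillar collagen. In the kidney, matrix is made by fibroblasts, pericytes and mesangial cells, and a dense basement membrane surrounds each tubule and glomerular capillary.

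Markers of the quiescent stellate cell that are not among the 41 genes were used to check the label. In control livers the mean MAS5 signal, a linear intensity summarised from the probe pairs of a probe set, was 121 for Lrat (the enzyme that stores vitamin A as retinyl ester), 56.0 for Hand2 (a transcription factor of the stellate cell) and 52.2 for Gfap. Lhx2 (27.7) and Cygb (45.7) lay under a mean of 50, the level below which the study set signals aside. In control kidneys Lrat (16.7), Hand2 (6.95), Lhx2 (2.69), Gfap (28.3) and Cygb (44.8) were all under 50. The list is not of the liver alone: of its 10 markers tested between control livers and kidneys 6 were higher in liver, Pth1r (67.6 in liver and 3153 in kidney) and Tcf21 (95.8 and 229) were lower, and Rgs5 (543 and 496) and Adamtsl2 (123 and 109) were not called. Its 12 measured markers summed to 1748.0 to 2692.3 in control livers and 3901.1 to 4652.6 in control kidneys. Most of the kidney sum was Pth1r, while Colec11 of the same list read 559.3 to 1028.3 in control livers and 25.9 to 63.4 in control kidneys. In these tissue RNAs, fewer cells of a type and less RNA per cell cannot be told apart.

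Arrays of a group correlated with a median r of 0.947 to 0.975, and Cyp2b10, the P450 gene that PB induces, read 15.7 to 49.5 in control livers and 9730.5 to 12773.5 in PB livers. A few arrays stood apart. Control liver 5 had the highest signal of the kidney transcript Kap (1230.2, against 1.5 to 221.5 in the other control livers), control liver 2 had the highest of the epithelial transcript Epcam (180.4, against 3.3 to 28.5), and PB kidneys 12 and 15 had the highest of the fat cell transcript Adipoq (956.1 and 800.4, against 55.8 to 413.5). The hepatocyte transcript Alb was high in PB kidney 19 (1029.6, against 79.8 to 173.8 in the other PB kidneys). It was also high in control kidneys 1, 3, 9 and 10 (416.1 to 922.8, against 61.2 to 195.4 in the other control kidneys).

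Col4a1 and Col4a2, whose chains twist into one basement membrane molecule, lie next to each other, and their promoter sequences are shown because both genes were lower in liver than in kidney. Promoter windows (250 bases before and 50 after the start site, RefSeq, GRCm38.p6) were in the table used for 28 of the 42 genes. The start sites of Col4a1, on the minus strand (chr8:11312777-11313076), and Col4a2, on the plus strand (chr8:11312555-11312854), lie 21 bases apart and point towards each other, so that the annotated transcripts overlap at their 5′ ends and 78 bases belong to both windows as reverse complements. These shared bases are in capitals, and both windows are written 5′ to 3′ on the strand of their own gene.
Col4a1: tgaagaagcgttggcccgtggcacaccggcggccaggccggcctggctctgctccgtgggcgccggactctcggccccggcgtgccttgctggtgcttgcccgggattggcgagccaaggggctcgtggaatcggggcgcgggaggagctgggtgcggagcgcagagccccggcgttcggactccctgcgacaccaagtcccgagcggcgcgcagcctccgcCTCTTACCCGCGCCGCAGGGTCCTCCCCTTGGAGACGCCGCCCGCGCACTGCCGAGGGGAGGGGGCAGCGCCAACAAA
Col4a2: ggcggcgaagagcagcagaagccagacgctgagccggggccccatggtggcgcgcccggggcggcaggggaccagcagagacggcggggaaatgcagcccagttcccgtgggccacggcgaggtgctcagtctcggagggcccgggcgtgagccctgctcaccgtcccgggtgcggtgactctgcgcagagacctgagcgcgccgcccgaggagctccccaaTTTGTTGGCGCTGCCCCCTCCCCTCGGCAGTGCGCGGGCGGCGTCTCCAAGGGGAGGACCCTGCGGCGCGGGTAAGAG

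The windows of Des and Col15a1 are shown because these genes had the largest decrease and the largest increase among the genes called in PB livers. Des lies on the plus strand at chr1:75360042-75360341 and Col15a1 on the plus strand at chr4:47207762-47208061. Capitals mark matches, on either strand, to GGGCGG (a GC box), to CCAAT, to the TATA box TATAAA, and to CANNTG (an E box). The Des window has 2 GC boxes and 2 E boxes, and the Col15a1 window has 1 E box.
Des: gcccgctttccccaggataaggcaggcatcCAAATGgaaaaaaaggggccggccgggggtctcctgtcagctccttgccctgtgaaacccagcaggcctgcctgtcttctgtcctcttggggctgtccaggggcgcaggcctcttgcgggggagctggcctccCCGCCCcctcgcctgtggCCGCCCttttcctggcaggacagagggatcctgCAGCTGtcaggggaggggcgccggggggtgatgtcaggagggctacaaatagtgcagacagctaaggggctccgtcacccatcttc
Col15a1: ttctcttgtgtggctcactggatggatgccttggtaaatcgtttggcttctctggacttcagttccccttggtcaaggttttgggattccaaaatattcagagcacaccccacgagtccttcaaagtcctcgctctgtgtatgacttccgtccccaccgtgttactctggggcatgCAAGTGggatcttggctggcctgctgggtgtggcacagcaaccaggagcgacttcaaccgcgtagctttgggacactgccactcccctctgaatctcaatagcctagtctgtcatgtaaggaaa

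Among the 28 windows, 18 hold GGGCGG, against 35.7% of the 32851 promoter windows of the same length in the table. CCAAT is in 12 of them (37.4% of all windows), CANNTG in 17 (72.3%) and TATAAA in 3, those of Col3a1, Postn and Vim (13.6%). These matches describe the letters alone. By gene order, 4 pairs of the listed genes are direct neighbours: Col3a1 and Col5a2 on chromosome 1, Col6a1 and Col6a2 as well as Dcn and Lum on chromosome 10, and Col4a1 and Col4a2 on chromosome 8.

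To ask whether 4 weeks of PB changed matrix and stellate cell transcripts of the liver, log2 signals of PB and control livers were compared with limma. Lower in livers of PB-treated animals were the receptors Pdgfra and Pdgfrb, the proteoglycans Dcn and Bgn, the basement membrane chains Col4a1 and Lamc1, and Des, Mmp2 and Reln, while Col15a1 and Mmp14 were higher. No fibrillar collagen had a difference that passed the test. Of the 41 genes, 36 had a mean of at least 50 in control or PB livers and were tested, and at a Benjamini-Hochberg adjusted p under 0.05 over all 18981 probe sets tested 9 were lower and 2 were higher. In the background of 9920 genes, each by 1 probe set, 7.83% were lower and 6.43% were higher, so the 9 of 36 (25.0%) lay above the background share and the 2 of 36 (5.56%) near it. The list was drawn up with earlier results of these data known, so these shares describe it and are no independent test. The median log2 difference (PB minus control) of the 36 genes was -0.13, against -0.02 for all genes tested. Of the 36 differences 30 were negative (83.3%), against 53.8% of those of all genes, and most marker lists below leaned the same way. Des and Lamc1 passed the signal filter through the control livers alone, and Col15a1 through the PB livers alone. Lama2, Col1a1, Lox, Timp1 and Thy1 were under 50 in both groups of livers and were not tested.

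**Figure D1:**
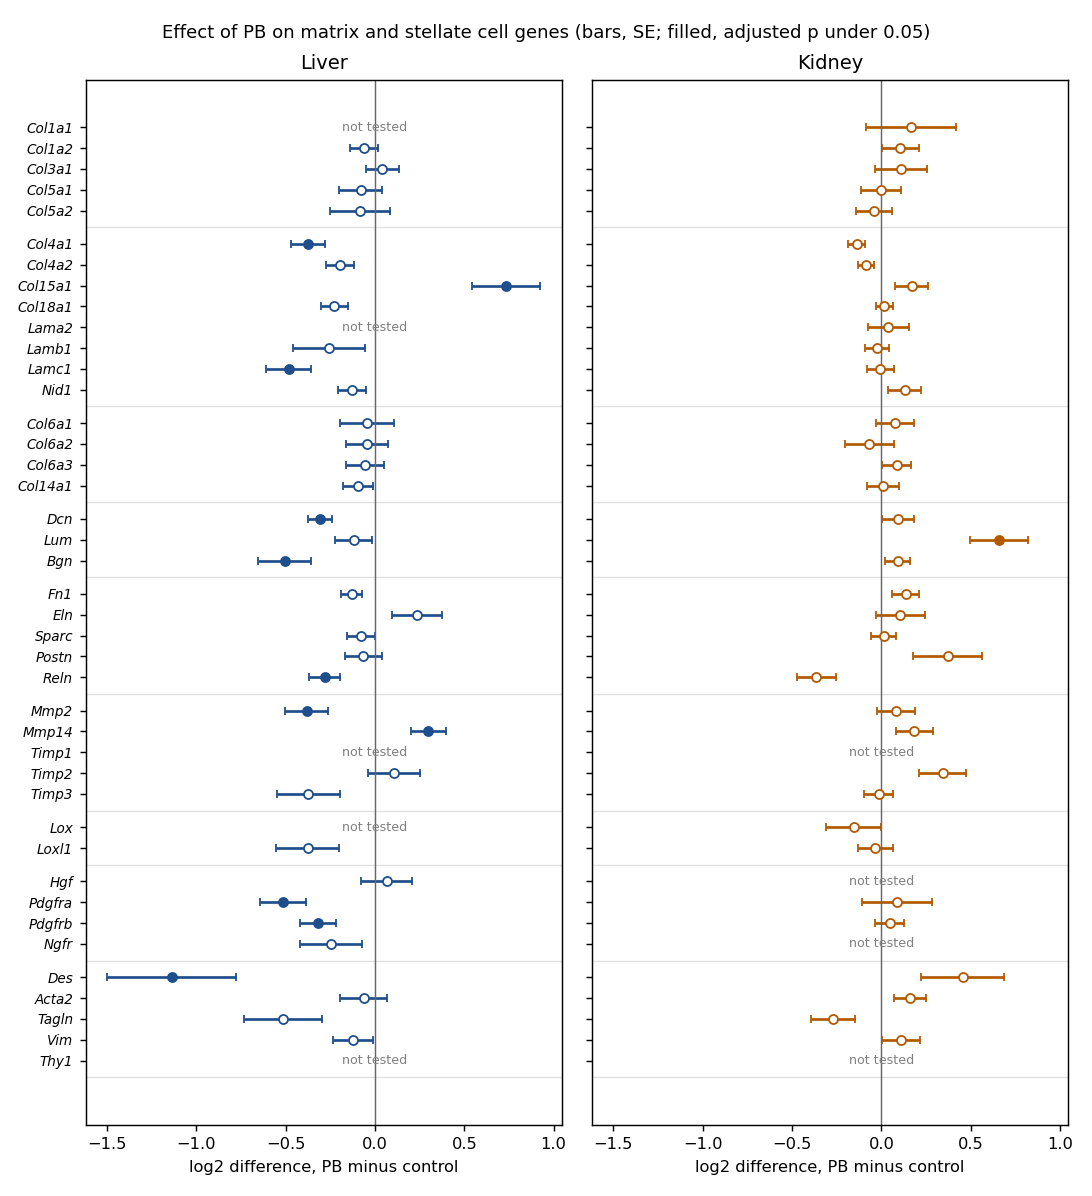
Log2 difference between PB-treated and control animals (horizontal axis) for each of the 41 genes, ordered by role, in liver (left) and kidney (right), with n = 10 animals per group. Points are limma estimates, bars their SE, and filled points had an adjusted p under 0.05; the 11 filled points in liver lie mostly left of 0, and Lum is the only filled point in kidney.

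Receptors for platelet-derived growth factor, the main mitogen of stellate cells, were lower. Pdgfra, the alpha receptor, read 75.4 to 116.7 in control livers (median 97.9) and 42.7 to 97.7 in PB livers (median 71.6). Every PB liver lay below the control median, though the ranges overlapped. The mean fell from 99.5 ± 14.4 (SD, n = 10) to 70.7 ± 16.0, a log2 difference of -0.51 (SE 0.13, adjusted p = 0.00986). Pdgfrb, the beta receptor, read 98.7 to 216.2 in control livers (median 128) and 91.0 to 117.7 in PB livers (median 105), and differed by -0.32 on the log2 scale (SE 0.10, adjusted p = 0.0427). Its highest control value came from control liver 2, one of the arrays that stood apart, and without control livers 2 and 5 the difference was -0.24 (adjusted p = 0.0445). The other 2 genes of this group were not called: Ngfr, the p75 neurotrophin receptor of stellate cells, differed by -0.25 (SE 0.17, adjusted p = 0.384), and Hgf, the hepatocyte growth factor made by stellate cells, by 0.07 (SE 0.14, adjusted p = 0.805).

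Des, the gene of desmin and a classical cytoskeletal marker of rodent stellate cells, had the largest decrease. It read 38.5 to 104.4 in control livers (median 58.4) and 7.2 to 68.5 in PB livers (median 38.8), with PB livers 11, 12 and 20 at 10.1, 10.8 and 7.2. In 9 of 10 PB livers Des lay below the control median. The log2 difference was -1.14 (SE 0.36, adjusted p = 0.0404), but most PB values are under 50, and with signals under 50 set to 50 it was -0.25 (adjusted p = 0.141). A second Des probe set, under 50 in both groups and not tested, had means of 20.21 in control and 19.55 in PB livers. The remaining markers of this group did not pass: Acta2, the smooth muscle actin of activated stellate cells, differed by -0.06 (SE 0.13, adjusted p = 0.796), Tagln, an actin-binding protein of smooth muscle, by -0.52 (SE 0.22, adjusted p = 0.125), and Vim, the intermediate filament vimentin, by -0.12 (SE 0.11, adjusted p = 0.523).

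Small leucine-rich proteoglycans bind collagen fibrils and growth factors, and 2 of the 3 were lower. Decorin (Dcn) read 1315.9 to 1810.7 in control livers (median 1558) and 1036.1 to 1473.0 in PB livers (median 1210), and its mean went from 1541 ± 158 to 1247 ± 143 (SD, n = 10 each). All PB livers lay below the control median, and the log2 difference was -0.31 (SE 0.07, adjusted p = 0.00398). Biglycan (Bgn) read 294.1 to 650.1 (median 487) in control livers and 239.2 to 473.9 (median 308) in PB livers. Its log2 difference was -0.51 (SE 0.15, adjusted p = 0.0263), and again every PB liver was below the control median. Of 2 further Bgn probe sets, 1 differed by -0.16 (adjusted p = 0.0561) and 1 by -0.46 (adjusted p = 0.0724). Lumican (Lum) differed by -0.12 (SE 0.10, adjusted p = 0.495).

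Of the 8 basement membrane genes 7 were tested in liver, and 2 were lower and 1 higher. Col4a1 read 284.1 to 540.6 in control livers (median 361) and 240.6 to 328.6 in PB livers (median 279), and differed by -0.37 (SE 0.09, adjusted p = 0.0104). Its second probe set differed by -0.69 (SE 0.14, adjusted p = 0.00217). The highest control value came from control liver 2, and without control livers 2 and 5 the difference was -0.31 (adjusted p = 0.0155). Its partner chain Col4a2 differed by -0.20 (SE 0.08, adjusted p = 0.0994).

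Lamc1, the laminin gamma 1 chain, read 47.3 to 91.9 (median 62.9) in control livers and 35.6 to 60.4 (median 47.6) in PB livers, a difference of -0.48 (SE 0.13, adjusted p = 0.0129). Control liver 2 again held the highest value. A second Lamc1 probe set, under 50 in both groups and not tested, had means of 21.94 in control and 29.45 in PB livers. Col18a1, the collagen from which endostatin is cut, read 1926.0 to 3019.8 (median 2801) in control livers and 1943.1 to 2701.5 (median 2274) in PB livers. At -0.23 (SE 0.08) its adjusted p was 0.0500, just above the threshold, and without control livers 2 and 5 the adjusted p was 0.00523 at a difference of -0.28. A second Col18a1 probe set was lower in PB livers (-0.22, SE 0.05, adjusted p = 0.00550). Lamb1, the laminin beta 1 chain, differed by -0.26 (SE 0.20, adjusted p = 0.442) and Nid1, which links laminin to collagen IV, by -0.13 (SE 0.08).

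Col15a1 went the other way. This collagen of the basement membrane zone read 18.3 to 60.5 (median 39.1) in control livers and 47.6 to 89.9 (median 60.8) in PB livers. All 10 PB livers lay above the control median. The log2 difference was 0.73 (SE 0.19, adjusted p = 0.0127), and against 50 in place of the control mean the rise was at least 1.31-fold.

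Proteases and inhibitors were split. Mmp14, a membrane-bound metalloprotease that activates gelatinase A, read 132.6 to 238.3 in control livers (median 199) and 189.8 to 275.8 in PB livers (median 231), a difference of 0.30 (SE 0.10, adjusted p = 0.0482), and 9 of 10 PB livers were above the control median. Mmp2, that gelatinase, read 59.3 to 85.5 (median 71.6) in control livers and 39.4 to 72.1 (median 56.2) in PB livers, a difference of -0.38 (SE 0.12, adjusted p = 0.0381). A second Mmp2 probe set differed by 0.06 (SE 0.13, adjusted p = 0.824), so the 2 probe sets of this gene disagree. A second Mmp14 probe set differed by 0.61 (SE 0.20, adjusted p = 0.0502). The tissue inhibitors were not called, with differences of 0.11 for Timp2 (SE 0.15, adjusted p = 0.690) and -0.37 for Timp3 (SE 0.18, adjusted p = 0.177). Loxl1, which cross-links elastin, differed by -0.38 (SE 0.17, adjusted p = 0.165).

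Among the glycoproteins, Reln, the secreted protein reelin, read 494.0 to 760.1 in control livers (median 688) and 446.1 to 630.5 in PB livers (median 567). Its difference was -0.28 (SE 0.09, adjusted p = 0.0309) with every PB liver below the control median. Fn1 (fibronectin, which hepatocytes also secrete into plasma) differed by -0.13 (SE 0.06, adjusted p = 0.151). Its second probe set, however, fell from a mean of 469 to 240.4 (log2 difference -0.96, SE 0.14, adjusted p = 5.1e-05), so the probe sets of Fn1 disagree in size. Sparc, a collagen-binding glycoprotein, by -0.08 (SE 0.08, adjusted p = 0.558), Postn (periostin) by -0.07 (SE 0.10, adjusted p = 0.730) and Eln (elastin) by 0.24 (SE 0.14, adjusted p = 0.289).

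No fibrillar collagen and no chain of collagen VI or XIV was called in liver. By limma none of the 8 probe sets followed for these genes had an unadjusted p under 0.05. Second probe sets differed by -0.29 for Col14a1 (SE 0.12, adjusted p = 0.112) and by -0.31 for Col5a1 (SE 0.18, adjusted p = 0.271). The fibrillar chains Col1a2, Col3a1, Col5a1 and Col5a2 had differences of -0.06, 0.04, -0.08 and -0.08, with SEs of 0.08, 0.09, 0.12 and 0.17. Col6a1, Col6a2, Col6a3 and Col14a1 differed by -0.05, -0.04, -0.06 and -0.10, with SEs of 0.15, 0.12, 0.11 and 0.09. These intervals leave room for changes of the size seen for Dcn in the less precise of them, such as Col5a2 and Col6a1.

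Several of these calls sit close to the threshold. Leaving out single livers did not end the calls of Pdgfra, Dcn, Col4a1, Lamc1 and Col15a1 in any of the 20 fits. Bgn was lost without control liver 4 (log2 difference -0.46, adjusted p = 0.0513). Reln was lost in 7 of the 20 fits, without control livers 1, 3 or 6 or PB livers 11, 12, 16 or 17 (adjusted p up to 0.0577). Des was lost in 12, without control livers 1, 3, 4, 6, 7, 8, 9 or 10 or PB livers 11, 12, 16 or 20 (up to 0.0746). Mmp2 was lost in 11, without control livers 1, 3, 5, 6, 8 or 10 or PB livers 11, 13, 14, 18 or 20 (up to 0.0706). Pdgfrb was lost in 14, without control livers 1, 3, 4, 6, 7 or 8 or PB livers 11, 12, 13, 14, 17, 18, 19 or 20 (up to 0.0710). Mmp14 was lost in 12, without control livers 1, 3, 5, 9 or 10 or PB livers 11, 12, 13, 14, 15, 16 or 19 (up to 0.0848). The adjusted p-values are from limma, and no sign changed in these fits.

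**Figure D2:**
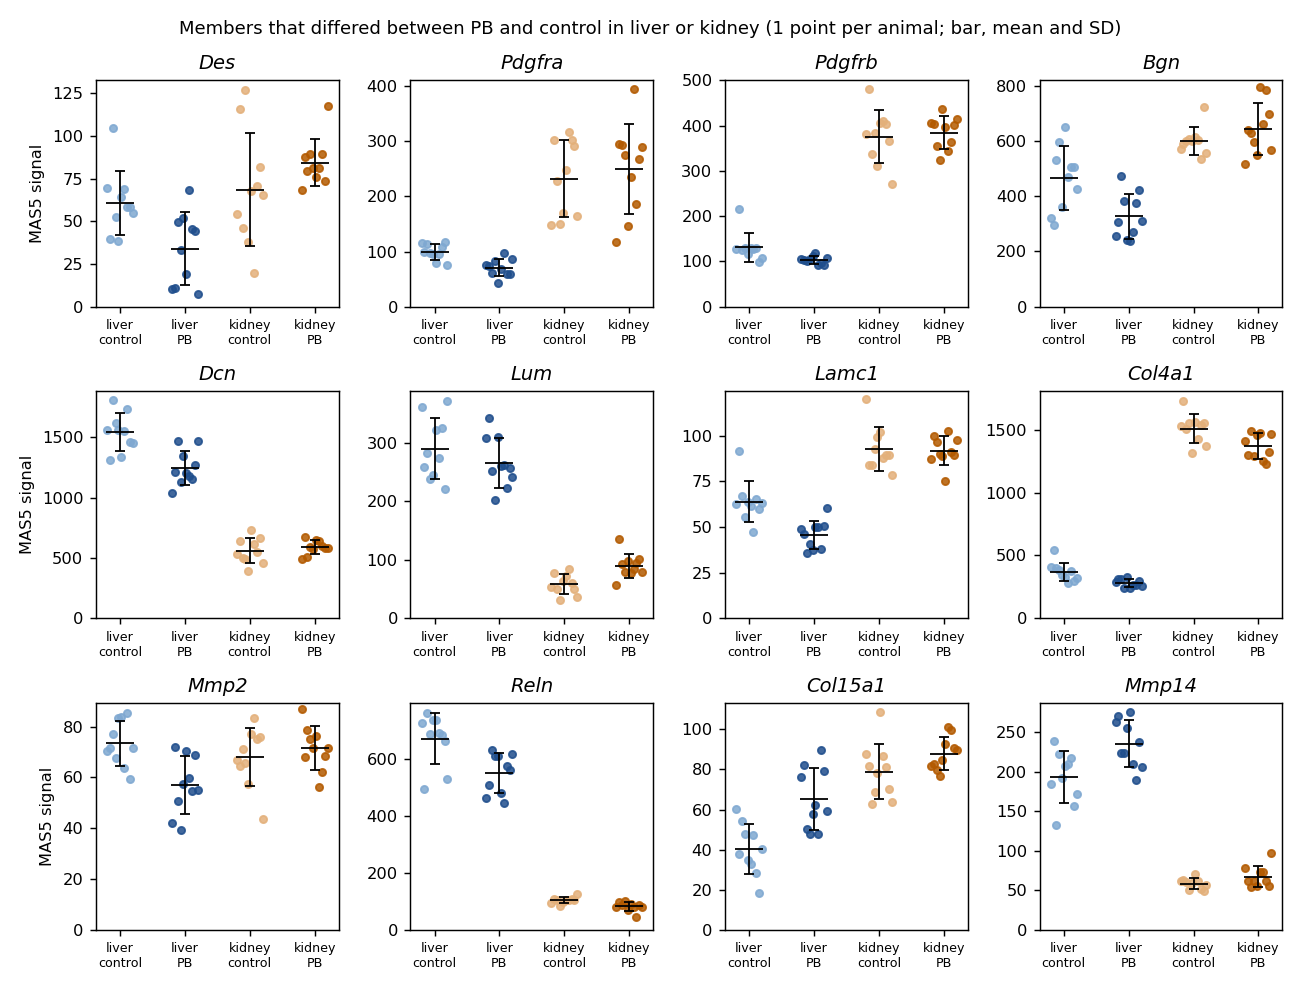
MAS5 signal (vertical axis, from 0) of the 12 genes that differed between PB-treated and control animals in liver or kidney, 1 point per animal in the 4 groups, with the mean and SD as bars. PB livers lie below control livers in most panels with overlapping ranges, Col15a1 and Mmp14 lie higher, and Lum lies higher in PB kidneys.

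Markers of liver cells were tested as well. Over the marker lists 46 tests gave 5 lower and 0 higher genes, in a background of 7.83% lower and 6.43% higher genes. Of 10 tested markers of the quiescent stellate cell 1 was called: Lrat read 86.5 to 201.5 in control livers (median 101) and 47.9 to 93.2 in PB livers (median 62.9), a log2 difference of -0.90 (SE 0.15, adjusted p = 0.000319). The summed signal of the 12 markers with a probe set was 1748.0 to 2692.3 in control (median 2332) and 1758.3 to 2324.8 in PB livers (median 2011). Of 10 tested endothelial markers Stab2, a scavenger receptor of sinusoidal endothelium, was lower (-0.38, SE 0.06, adjusted p = 0.000331). The sums of the list were 2140.1 to 2835.9 (median 2688) and 2057.4 to 2811.0 (median 2212). Of 11 tested macrophage markers C1qa was lower (-0.34, SE 0.11, adjusted p = 0.0425), with sums of 3459.5 to 5577.2 (median 3791) and 2574.7 to 5711.0 (median 3602). Of 9 hepatocyte markers Fgb (-0.29, adjusted p = 0.00574) and Ahsg (-0.20, adjusted p = 0.00869) were lower, with sums of 149219.2 to 197080.7 (median 162624) and 137194.7 to 199930.7 (median 158315). At an unadjusted p under 0.05 by limma, 4 stellate cell, 2 endothelial, 4 macrophage and 2 hepatocyte markers were lower, and 1 endothelial marker was higher. Differences were negative for 8 of 10 stellate cell, 7 of 10 endothelial, 10 of 11 macrophage and 8 of 9 hepatocyte markers, against 53.8% of all genes. The part of these cell populations in the differences was not tested.

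None of the tested markers of lymphocytes (1), red blood cells (1), smooth muscle, pericyte and mesangial cells (1) or kidney tubule (3) was called in liver, nor did any have an unadjusted p under 0.05. The markers of cholangiocytes, fat cells, mesothelium and podocytes were under 50 in both groups. In control liver 5 the kidney tubule markers summed to 2303.8, against a median of 689 in control livers and at most 894.4 in PB livers.

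Genes of related pathways outside the list were tested in the same way in liver. Over these lists 61 tests gave 2 higher and 3 lower genes, in a background of 6.43% higher and 7.83% lower genes. Among PDGF ligands 1 of 2 tested genes was called: Pdgfa rose by 0.46 (SE 0.13, adjusted p = 0.0258), from a mean of 87.0 to 120. Among 14 tested genes of the TGF-beta pathway, which drives collagen synthesis, the receptor Tgfbr2 rose by 0.33 (SE 0.10, adjusted p = 0.0234) and the signal transducer Smad4 fell by 0.16 (SE 0.05, adjusted p = 0.0326). Of 11 tested genes of collagen synthesis Bmp1, the protease that trims procollagen, fell by 0.38 (SE 0.07, adjusted p = 0.000663). Of 8 further glycoproteins and proteoglycans Prelp fell by 0.34 (SE 0.10, adjusted p = 0.0215). None of the 13 tested matrix receptors, 5 other basement membrane genes, 5 other collagens or 3 other proteases and inhibitors was called by limma, and the numbers with an unadjusted p under 0.05 were 2, 2, 2 and 1.

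In kidney, where Cyp2b10 read 34.5 to 56.3 in control and 18.4 to 55.1 in PB-treated mice, Lum was the one gene called of the 37 tested. In the background of 10048 genes 2.16% were higher and 1.59% were lower, and 1 higher and 0 lower of 37 is near these shares. Without adjustment 2 genes were higher and 3 lower at a p under 0.05 by limma. The median log2 difference of the 37 was 0.08 and that of all genes tested 0.01. Hgf, Ngfr, Timp1 and Thy1 were under 50 in both groups of kidneys. Lum, a keratan sulfate proteoglycan of collagen fibrils, read 31.6 to 83.7 in control kidneys (median 57.2) and 57.3 to 135.1 in PB kidneys (median 87.8). All 10 PB kidneys lay above the control median, and the means were 58.0 ± 17.0 and 89.8 ± 20.4 (SD, n = 10), a log2 difference of 0.66 (SE 0.16, adjusted p = 0.0265).

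The 2 PB kidneys with the most fat cell transcript, 12 and 15, had Lum signals of 135.1 and 98.1. Of 2 tested fat cell markers Adipoq was called (3.2 to 115.6 in control and 55.8 to 956.1 in PB kidneys, log2 difference 2.54, SE 0.57, adjusted p = 0.0153), and the 3 measured fat cell markers summed to 51.7 to 211.3 and 78.2 to 1368.0. Without PB kidneys 12 and 15 the Lum difference was 0.56 (adjusted p = 0.0828), and without PB kidney 19 alone it was 0.64 (adjusted p = 0.0500, just above the threshold). PB kidney 19 had the highest Alb signal of the PB kidneys (1029.6). The part of fat tissue or of liver transcript in the Lum difference was not tested.

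The remaining members showed no call in kidney. Reln differed by -0.36 (SE 0.11, adjusted p = 0.0658), Des by 0.46 (SE 0.23, adjusted p = 0.304), Postn by 0.37 (SE 0.19, adjusted p = 0.322), Timp2 by 0.34 (SE 0.13, adjusted p = 0.172) and Col4a1 by -0.14 (SE 0.05, adjusted p = 0.128). All 10 PB kidneys lay above the control median for Des and below it for Reln and Col4a1. The genes called in liver read as follows in kidney. Des read 19.6 to 126.9 in control and 68.2 to 117.6 in PB kidneys, Pdgfra 148.8 to 317.5 and 117.1 to 394.5, and Pdgfrb 272.2 to 482.1 and 324.8 to 437.6. Dcn read 388.7 to 727.9 and 487.0 to 673.2, and Bgn 534.5 to 721.4 and 516.8 to 793.9. Lamc1 read 78.5 to 120.2 and 75.4 to 102.5, and Col15a1 62.7 to 108.7 and 76.8 to 101.3. The ranges of control and PB kidneys overlapped for each of these genes. Mmp2 read 43.5 to 83.6 and 56.1 to 87.0, and Mmp14 49.1 to 71.1 and 54.7 to 96.9, again with overlap. Apart from Lum and the 5 genes with a difference given above, the other 31 tested genes had differences between -0.27 (Tagln, SE 0.12) and 0.19 (Mmp14, SE 0.10).

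Among kidney markers Podxl (0.20, SE 0.06, adjusted p = 0.0465) and Ptpro (0.44, SE 0.10, adjusted p = 0.0209) of 5 podocyte genes, Aqp1 of 10 kidney tubule genes (0.20, SE 0.05, adjusted p = 0.0196) and Rgs5 of 5 tested stellate cell and pericyte genes (0.28, SE 0.06, adjusted p = 0.00717) were higher. None of the tested markers of macrophages (4), cholangiocytes (4), endothelium (9), hepatocytes (4), lymphocytes (1), mesothelium (3), red blood cells (2) or smooth muscle, pericyte and mesangial cells (5) was called by limma, and 1 red blood cell and 1 smooth muscle marker had an unadjusted p under 0.05. Over the marker lists 54 tests in kidney gave 5 higher genes, Adipoq included, and 0 lower ones. Matrix genes outside the list were also tested in kidney, and 76 tests gave 1 higher and 4 lower genes. The background for both was 2.16% higher and 1.59% lower genes. Of 6 tested other collagens, Col27a1 was higher (0.26, SE 0.07, adjusted p = 0.0451) and Col4a4, a chain of the glomerular basement membrane (-0.27, SE 0.07, adjusted p = 0.0358), and Col8a1 (-0.39, SE 0.11, adjusted p = 0.0491) were lower. Lama3 of 8 other basement membrane genes (-0.45, SE 0.08, adjusted p = 0.00328) and the laminin receptor subunit Itga6 of 14 matrix receptors (-0.26, SE 0.07, adjusted p = 0.0406) were lower as well. No gene was called among 4 PDGF ligands, 15 TGF-beta pathway genes, 10 genes of collagen synthesis, 12 other glycoproteins and proteoglycans and 7 other proteases and inhibitors, where 1, 2, 1, 3 and 0 had an unadjusted p under 0.05.

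A test of the interaction asked whether PB acted differently in liver and kidney. It used the same 40 arrays as the PB comparisons and included 39 of the 41 genes. The effect was lower in liver than in kidney for 5 of them and higher for 0, with 12 and 1 at an unadjusted p under 0.05 by limma. In the background of 11193 genes 4.09% were lower and 3.56% higher. The log2 differences between the effects (liver minus kidney) were -1.59 for Des (SE 0.45, adjusted p = 0.0244), -0.78 for Lum (SE 0.20, adjusted p = 0.0125), -0.60 for Bgn (SE 0.17, adjusted p = 0.0283), -0.48 for Lamc1 (SE 0.14, adjusted p = 0.0287) and -0.40 for Dcn (SE 0.12, adjusted p = 0.0320). With signals under 50 set to 50 the differences of Des (-0.52, adjusted p = 0.0920) and Lamc1 (-0.31, adjusted p = 0.0622) did not pass. All 3 small leucine-rich proteoglycans are among these 5 genes. With the animal as a block, since both tissues came from the same mice, Lamc1 (adjusted p = 0.0564) and Dcn (adjusted p = 0.0693) no longer passed and Pdgfrb did. Without PB kidneys 12 and 15, Lamc1 (adjusted p = 0.0511) and Dcn (adjusted p = 0.0630) were not called, and without control livers 2 and 5 Lamc1 was not (adjusted p = 0.0511).

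For the remaining members called in liver the difference between tissues did not pass: it was -0.60 for Pdgfra (SE 0.25, adjusted p = 0.146), -0.46 for Mmp2 (SE 0.16, adjusted p = 0.0662), -0.37 for Pdgfrb (SE 0.13, adjusted p = 0.0887), -0.24 for Col4a1 (SE 0.11, adjusted p = 0.207), 0.08 for Reln (SE 0.14, adjusted p = 0.808), 0.56 for Col15a1 (SE 0.21, adjusted p = 0.106) and 0.11 for Mmp14 (SE 0.14, adjusted p = 0.726). For these 7 genes a response particular to liver is therefore not shown. Reln had a negative difference in both tissues.

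Liver and kidney themselves were compared next, within control and within PB-treated mice. In control mice 39 of the 41 genes were tested between liver and kidney, 12 were higher and 23 were lower in liver, and the 10 livers and 10 kidneys did not overlap for 23 (59.0%, against 48.1% of all 10920 genes tested). In this background 36.5% were higher and 44.2% were lower in liver. The 23 of 39 lower genes (59.0%) lay above that share and the 12 of 39 higher ones (30.8%) below it, and the median log2 difference of the 39 (liver minus kidney) was -0.49, against -0.08 for all genes tested. Here too the shares describe a list drawn up with earlier results of these data known. Hgf and Ngfr passed the signal filter through liver alone, and Col1a1, Col15a1, Lama2 and Lox through kidney alone. Each comparison is of 1 probe set with itself across tissues.

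**Figure D3:**
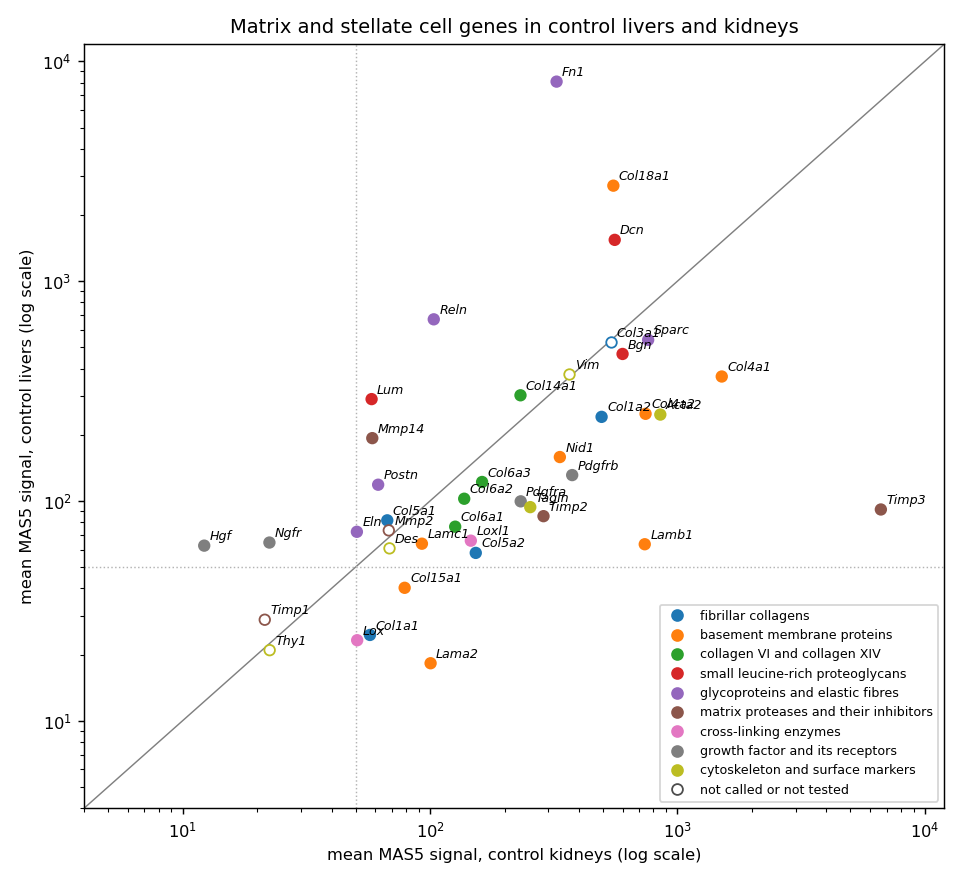
Mean MAS5 signal of each of the 41 genes in control livers (vertical axis) and control kidneys (horizontal axis), both on log scales, n = 10 animals each, coloured by role. The diagonal marks equal signal, dotted lines mark a signal of 50, and open points were not called or not tested; Fn1, Col18a1 and Reln lie far above the diagonal and Timp3 and Lamb1 far below it.

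On the liver side stood fibronectin, reelin and endostatin's parent collagen. Fn1 read 7008.7 to 9319.3 in control livers (median 7924) and 230.4 to 395.1 in control kidneys (median 321), a mean 24.9-fold higher in liver and a log2 difference of 4.65 (SE 0.07, adjusted p = 2.55e-24). In PB mice it read 6191.8 to 8764.6 in liver and 317.7 to 439.5 in kidney. Reln was 6.48-fold higher in control livers (log2 difference 2.69, SE 0.08, adjusted p = 6.49e-19), with kidneys of control and PB-treated mice at 83.6 to 124.8 and 45.8 to 101.3. Col18a1 was 4.94-fold higher (2.30, SE 0.07, adjusted p = 4.03e-19), with kidneys at 510.7 to 660.9 and 513.1 to 604.6. Lum was 5.01-fold higher (2.36, SE 0.16, adjusted p = 2.00e-12), with 222.1 to 371.9 in control and 202.4 to 343.0 in PB livers. The sets of liver and kidney values were separate for each of these genes.

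Hgf read 37.3 to 89.5 in control livers (median 61.2) and 2.2 to 33.0 in control kidneys (median 9.10). It read 45.5 to 90.6 in PB livers and 3.9 to 26.5 in PB kidneys. Against 50, in place of the kidney mean, the control liver mean of 62.6 was at least 1.25-fold higher (fitted log2 difference 2.83, SE 0.42, adjusted p = 1.82e-06). The other genes higher in liver were Dcn (1.48), Mmp14 (1.71), Postn (1.01), Eln (0.51), Col14a1 (0.39) and Col5a1 (0.30), on the log2 scale. Second probe sets of Col14a1 (0.28, SE 0.13, adjusted p = 0.0572 by limma) and Col5a1 (0.06, SE 0.15, adjusted p = 0.734) were not called. Ngfr, with a kidney mean under 50, was at least 1.29-fold higher in liver.

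On the kidney side stood Timp3, Lamb1, Lama2, Col4a1 and Acta2. Timp3, the inhibitor of metalloproteases that binds to the matrix, read 5463.9 to 8938.4 in control kidneys (median 6481) and 70.2 to 125.6 in control livers (median 82.0), a mean 72.6-fold higher in kidney (log2 difference liver minus kidney -6.20, SE 0.11, adjusted p = 2.40e-23). In PB mice it read 5183.4 to 7793.7 in kidney and 38.2 to 100.6 in liver. Lamb1 read 651.1 to 868.2 in control kidneys and 37.2 to 97.3 in control livers, 11.6-fold higher in kidney (-3.59, SE 0.14, adjusted p = 6.69e-17), and 597.9 to 825.8 and 29.5 to 79.7 in PB mice. Lama2, the laminin alpha 2 chain, read 63.1 to 152.6 in control kidneys, 84.2 to 122.6 in PB kidneys, 4.1 to 37.8 in control livers and 3.3 to 44.4 in PB livers. Against 50, in place of the control liver mean, kidney was at least 2.01-fold higher (fitted difference -2.86, SE 0.38, adjusted p = 4.28e-07). Col4a1 was 4.10-fold higher in control kidneys (-2.06, SE 0.09, adjusted p = 4.72e-16), at 1313.7 to 1733.4, and read 1231.1 to 1490.5 in PB kidneys. Acta2 was 3.45-fold higher (-1.82, SE 0.11, adjusted p = 7.70e-13), with 747.1 to 1054.9 in control and 665.7 to 1265.2 in PB kidneys, and 188.6 to 417.7 in control and 183.1 to 331.5 in PB livers.

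Basement membrane genes were therefore on the kidney side in 7 of 8 cases, with Nid1 at -1.07, Lamc1 at -0.55 and Col15a1 at least 1.58-fold higher in kidney, and with Col18a1 as the exception. The receptors Pdgfra (-1.18) and Pdgfrb (-1.53), the inhibitor Timp2 (-1.74), the actin-binding Tagln (-1.51), the cross-linking enzyme Loxl1 (-1.16), the collagen VI chain Col6a3 (-0.42) and Bgn (-0.40) were lower in liver as well, and Lox, a cross-linking enzyme with a liver mean under 50, was at least 1.01-fold higher in kidney. Other Timp2 probe sets differed by -1.42, -0.37 and -2.99, the last with a liver mean under 50, so they disagree in size. Glycoproteins were on the liver side in 4 of 5, with Sparc (-0.49) as the exception. Fibrillar collagens were mixed: Col1a2 (-1.02) and Col5a2 (-1.41) were lower in liver. So was Col1a1, whose liver mean was under 50 and whose kidney mean was at least 1.14-fold higher. A second Col1a1 probe set, under 50 in all groups and not tested, had means of 35.3 in control livers and 34.2 in control kidneys. Col5a1 was higher by the probe set followed, and Col3a1 was not called (SE 0.13, adjusted p = 0.997). Des (-0.06, SE 0.26), Vim (0.02, SE 0.11) and Mmp2 (0.12, SE 0.11) were the remaining genes without a call in control mice. Of the neighbouring pairs, Dcn and Lum were both higher in liver and Col4a1 and Col4a2 (-1.59) as well as Col6a1 (-0.72) and Col6a2 (-0.39) were both lower, whereas Col3a1 and its neighbour Col5a2 parted. A second Col6a2 probe set, with a liver mean under 50, differed by -2.10.

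In PB mice, of 38 genes tested 11 were higher and 24 lower in liver, in a background of 11029 genes with 36.2% higher and 46.6% lower, and 33 of the 38 genes tested in both sets of mice were called in the same direction in both (86.8%, against 74.0% of the 10756 genes tested in both). None was called in opposite directions. Des and Mmp2 were called in PB mice alone (log2 differences liver minus kidney -1.65, SE 0.34, adjusted p = 0.000147 and -0.34, SE 0.12, adjusted p = 0.00992), and Col5a1 in control mice alone. Lox was called in control mice and not tested in PB mice. The control and PB comparisons use different animals, and the test of their difference is the interaction given above, in which Des passed, though not with signals under 50 set to 50, and Mmp2 did not.

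Genes whose products form one molecule or one filament system were compared across the 10 animals of each group, for 5 pairs and 20 relations in all. After adjustment over the 20, 2 relations passed by a permutation test. Col4a1 and Col4a2 correlated in control kidneys (Pearson r = 0.86, permutation p = 0.00082, adjusted p = 0.00820, Spearman rho = 0.62, permutation p = 0.0597, adjusted p = 0.265, n = 10). Without the 2 kidneys farthest from the Col4a1 median r was 0.83. In PB kidneys r was 0.68 (permutation p = 0.0354, adjusted p = 0.101), and in control and PB livers it was 0.01 and -0.18. Acta2 and Tagln, both of the contractile filament system, correlated in control livers (r = 0.83, permutation p = 0.00034, adjusted p = 0.00680, rho = 0.88, permutation p = 0.00170, adjusted p = 0.0340, n = 10), and without the 2 livers farthest from the Acta2 median r was again 0.83. For Acta2 and Tagln r was 0.54 in PB livers, 0.74 in control kidneys and 0.69 in PB kidneys (adjusted p = 0.210, 0.0705 and 0.0867, permutation tests). With 8 animals left neither relation passed the adjustment (adjusted p = 0.124 for both, permutation test).

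The other 3 pairs, Col1a1 with Col1a2, Col5a1 with Col5a2 and Col6a1 with Col6a2, passed in no group, with r from -0.50 (Col5a1 and Col5a2 in control livers) to 0.76 (the same pair in PB livers, permutation p = 0.0141, adjusted p = 0.0705). Col1a1 was under 50 in livers, where its values carry little order. Livers and kidneys form separate clusters for most of these genes, so no correlation was computed across tissues.

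**Figure D4:**
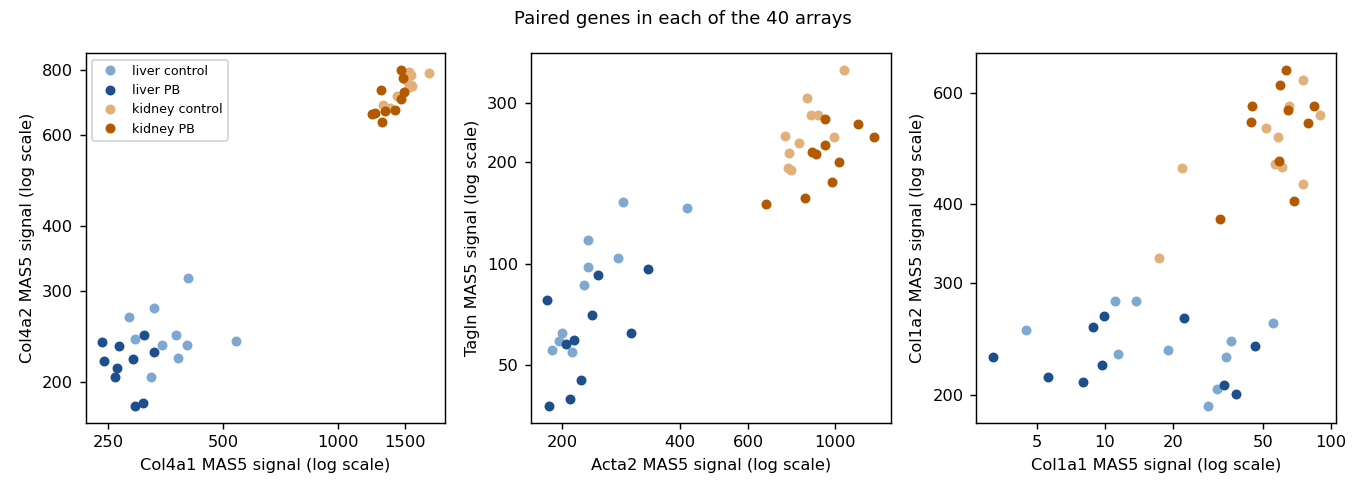
MAS5 signals of Col4a1 and Col4a2 (left), Acta2 and Tagln (middle) and Col1a1 and Col1a2 (right) on log axes, 1 point per array, coloured by tissue and treatment. Kidneys lie above livers in the first 2 panels, the control kidneys form a line for Col4a1 and Col4a2 (r = 0.86), and livers scatter without order for that pair (r = 0.01 in controls).

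Spread between animals was similar over the groups. Among genes with a mean of at least 50, the median coefficient of variation was 17.8% in control livers (35 genes), 18.8% in PB livers (34), 16.8% in control kidneys (37) and 14.5% in PB kidneys (36). Des in control kidneys varied most (48.3%), with 19.6 to 126.9, and Col4a2 in control kidneys least (5.60%). Timp1, a secreted metalloprotease inhibitor, had means of 28.8, 31.0, 21.5 and 17.0 in control livers, PB livers, control kidneys and PB kidneys. Thy1, a surface protein of fibroblasts, had means of 20.9, 13.6, 22.5 and 26.3. Both were not tested in any comparison.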

How the data were processed

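Liver and kidney RNA of 20 mice was measured on 40 Affymetrix Mouse430_2 arrays. The deposited intensity values are linear MAS5 signals, and the authors brought every array to the same trimmed mean (150). GCOS and MAS5 appear in the submitters' processing notes with no version. Detection calls were not used here.

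Gene names came from the platform annotation, updated by Entrez number through a RefSeq table (GRCm38.p6). A single symbol was found for 34945 probe sets, while 932 had several and 9160 had none. The RefSeq table held 34741 of them. A gene's probe set was the one with the highest mean signal. Identifiers ending in _s_at, _x_at or _a_at can take up related transcripts.

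After a floor of 1, signals were log2-transformed. A probe set was tested if its mean reached 50 in any group compared, and tests used limma 3.58.1 in R 4.3.3 (eBayes with a trend, two-sided) on the 20 arrays compared, or all 40 for the interaction, with Benjamini-Hochberg adjustment over all probe sets tested. The scripts were tested on simulated data. Of 1.5-fold changes 74.6% were recovered in the PB comparison of liver, 82.1% in that of kidney and 55.2% in the interaction. The shares of false calls were 6.81%, 8.46% and 4.73%. Changes were planted only in probe sets whose mean in the reference group lay above the filter of 50, with noise drawn independently for each array. The recovery therefore does not cover genes under 50 in that group, such as Col15a1 in control livers. Correlations used 100000 resamples (two-sided). Other steps ran in Python 3.11.15 (pandas 2.3.3, NumPy 2.4.6, SciPy 1.17.1) and figures in matplotlib 3.10.9. Precision is limited by the 10 animals of a group, which are the replicates.

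Liver and kidney were paired by the animal number in the labels. Their deviations from the group means correlated with a median r of 0.0755 in the same animal (-0.0740 to 0.211) and -0.0104 in different animals, over 15416 probe sets.

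The 42 genes, 8 pathway lists and 12 marker lists were chosen with earlier results of these data known. Every member is accounted for. All groups are given for members called in a PB comparison and the 5 largest differences to each side between control livers and kidneys, and up to 3 called genes are named per pathway list, and those called from the marker lists. Alternatives were 2 filters, an offset of 16, a floor of 50, quantile normalization, median centring, the methods' t-test, 1 fit of 40 arrays, other probe sets, the array number as a covariate and the animal as a block. The fits without single animals, without control livers 2 and 5, without PB kidneys 12 and 15, and adjusted over 1 probe set per gene were chosen after seeing the data.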

Additional observations from a re-analysis of the deposited data

Results flagged for a closer look

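Of 142 combinations of a gene and a group with a mean of at least 50, 14 (9.86%) had 1 animal whose gap to the next, as a share of the range of the 10 animals, was above the critical 0.466, where chance gives about 1 in 20 for normally distributed values. Control liver 2 was that animal for 6 of them: it was high for Pdgfrb (gap share 0.73, 216.2 against 130.4 in the next liver), Acta2 (0.574, 417.7 against 286.2), Lamc1 (0.556, 91.9 against 67.1), Col4a1 (0.533, 540.6 against 403.8) and Vim (0.472, 573.0 against 441.5), and low for Col18a1 (0.56, 1926.0 against 2538.6). The kidney of the same animal was high for Col18a1 (0.529, 660.9 against 581.4). In other control livers, animal 3 was high for Des (0.534, 104.4 against 69.2), animal 9 for Col5a1 (0.487, 101.7 against 87.0) and animal 4 for Col6a3 (0.474, 180.5 against 140.6). Control kidney 9 was high for Bgn (0.565, 721.4 against 615.8). PB kidney 20 was high for Des (0.571, 117.6 against 89.4) and Fn1 (0.487, 439.5 against 380.2), and PB kidney 18 was low for Col5a2 (0.482, 95.4 against 132.0). The gaps were taken on linear signals and the combinations share arrays, so the 9.86% is no test against that 1 in 20.

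The effect of PB differed between liver and kidney by the interaction test for Des (log2 difference -1.593, which was -0.52 and did not pass, adjusted p = 0.0920, with signals under 50 set to 50), Lum (-0.78), Bgn (-0.598), Lamc1 (-0.477) and Dcn (-0.399).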

How the results depend on the processing

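In liver the 9 lower genes became 5 without a filter on low signal and 0 by the thresholds of the methods' t-test (a ratio of at least 1.5 with p of at most 0.001). The 2 higher genes became 1 with a filter at 100, without a filter, with signals under 50 set to 50, after centring on the median, with the array number as a covariate, by the thresholds of the methods' t-test and by that t-test after Benjamini-Hochberg adjustment, which gave 6 lower genes. The cause was not tested. With single livers left out the counts were 5 to 10 lower and 1 to 2 higher. Mmp2 turned to 0.055707 on the log2 scale (adjusted p = 0.824) without probe sets ending in _s_at, _x_at or _a_at, and 7 genes were then lower. In kidney the 1 higher gene became 0 with a filter at 100 (where Lum is not tested), without a filter, by both forms of the methods' t-test and without PB kidneys 12 and 15. The 0 lower genes became 1, Reln, with quantile normalization and with the array number as a covariate. With single kidneys left out both counts were 0 to 1 (1 lower without PB kidney 14, 0 higher without PB kidney 19). For the interaction the 5 lower genes became 3 with a filter at 100, without a filter and without PB kidneys 12 and 15, and 8 after centring on the median. With the animal as a replicate block there were 4 (3 of the same genes and Pdgfrb), and this block gave 12 higher and 23 lower genes for liver against kidney in control mice and 11 and 25 in PB mice. All counts of the tissue comparisons stayed within 1.5 times, at 8 to 13 higher and 17 to 23 lower in control mice and 8 to 12 and 19 to 26 in PB mice. The 2 correlated pairs became 6 after centring on the median and 0 without the 2 animals farthest from the median of the first gene, which leaves 8 animals. For single genes, 650 of 759 values under an alternative kept their sign and their side of the threshold. Signals near 50 limit Des, Col15a1, Lamc1 and Hgf.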
